A study of Mus musculus with 2 samples.

Results

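The cortical neurogenic cascade is the ordered set of transcription factors through which radial glia of the dorsal telencephalon give rise to glutamatergic neurons. It was followed here through 10 genes, taken as a list that was chosen with earlier results of these data known. These were Pax6, Neurog1 and Neurog2 for radial glia, Eomes, Insm1, Neurod1 and Neurod4 for intermediate progenitors, and Neurod2, Neurod6 and Tbr1 for neurons. All 10 were found among the 19720 genes of the deposited count table, and all 10 belonged to the 14366 genes whose reads in the 2 libraries added up to 20 or more, which are called measured below. The study sequenced RNA from dissected cerebral cortex, described as telencephalic tissue, of C57BL/6 mice with a conditional knockout of the histone variant H2A.Z, labelled H2AZcKO, and of mice with floxed alleles, labelled H2AZfl/fl, whose title calls them WT. H2A.Z replaces the histone H2A in nucleosomes at many promoters. The sample titles and design text state embryonic day 16, while the stage field of both samples states 12, and the age cannot be settled. Neither the Cre driver nor the cells in which the alleles were deleted could be taken from the labels.

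The design text mentions triplicates, but the table has 1 count column per genotype, and whether a column is 1 library or a pool of replicates is not stated. Each column is called a library below. Every difference is between the H2AZcKO library of 9028523 reads in genes and the H2AZfl/fl library of 8474545 reads, with no replicate check and no test between genotypes. Each interval is the exact 95% Clopper-Pearson interval for how a gene's reads divide between the libraries. It covers counting error and nothing else, so intervals are narrower than an interval that included the spread between animals would be. The targeted gene H2afz had 535 reads in the H2AZcKO library and 1152 in the H2AZfl/fl library, a log2 ratio of -1.16 (-1.31 to -1.01). The related gene H2afv had 1095 reads in the H2AZcKO library and 1009 in the H2AZfl/fl library, a log2 ratio of 0.061 (-0.063 to 0.19). In bulk tissue, fewer cells of a type and less RNA per cell cannot be told apart.

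As background, Pax6 is a paired-domain and homeodomain factor of dorsal radial glia that activates Neurog2. Neurog1 and Neurog2 are proneural basic helix-loop-helix factors, which pair with E proteins to bind E-box DNA and commit progenitors to the glutamatergic fate. Their activity is followed by that of Eomes (also called Tbr2), a T-box factor that defines intermediate progenitors of the subventricular zone, of Insm1, a zinc-finger factor that promotes the formation of these basal progenitors, and of Neurod1 and Neurod4, further basic helix-loop-helix factors of cells leaving the cycle. Neurod2, Neurod6 and the T-box factor Tbr1 mark postmitotic glutamatergic neurons, and Tbr1 specifies neurons of the deep layers.

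Across the cascade, 7 factors were slightly lower in the H2AZcKO library beyond counting error with TMM scaling, Insm1 was slightly higher, and Neurog1 and Neurod4 could not be told from level at their depth. All 10 factors were detected in both libraries. None of the 10 reached a 1.5-fold difference in either direction, against 3.52% of measured genes at least 1.5-fold higher and 5.43% at least 1.5-fold lower. Intervals of the log2 ratio lay below 0 for 7 of 10 members, against 9.3% of measured genes, and above 0 for 1 of 10, against 12.5%. The count of 7 depended on the scaling: it was 4 with DESeq2 size factors, 3 when libraries were scaled so that dorsal patterning genes were level, and 8 with library totals. The share of all measured genes below 0 was not taken under these 3 scalings, so these counts have no background to be judged against. Because deeply read genes leave level more easily, the same shares were taken over the 4586 genes with at least 1000 reads in the sum: 7.68% lay below 0 and 24.5% above, whereas 7 of the 8 members with that depth lay below and 1 above. The median log2 ratio of the 10 members was -0.14, with a range from -0.47 to 0.16, beside 0.0018 for all measured genes and 0.037 for those with at least 1000 reads. The authors' deposited table marks 0 of the 10 members as significant and 318 of all 19720 genes listed, or 1.61%, so the count of 0 is not a result about the members.

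**Figure D1:**
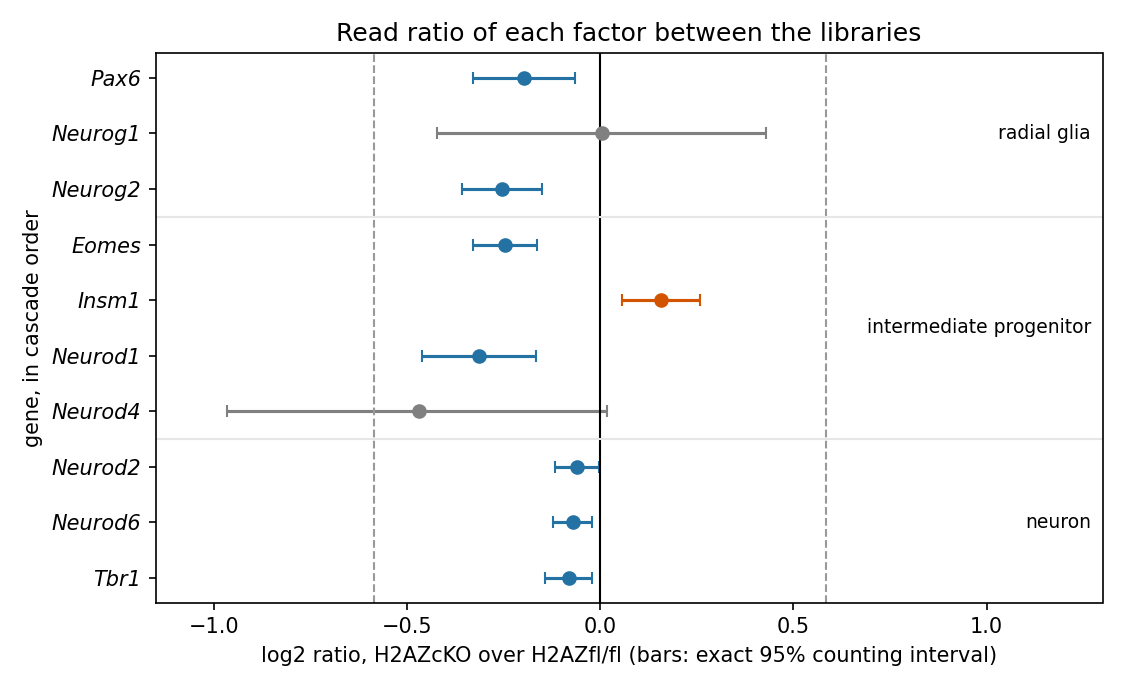
Log2 ratio of H2AZcKO to H2AZfl/fl reads for each factor after TMM scaling, in cascade order from top to bottom, 1 library per genotype. Points are ratios, bars are exact 95% counting intervals, and dashed lines mark 1.5-fold; Insm1 at 0.16 is the single point whose interval lies above 0.

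Among the radial glial factors, Pax6 and Neurog2 were lower in the H2AZcKO library and Neurog1 was not distinguishable from level. Pax6 (ENSMUSG00000027168, chromosome 2, 105668900 to 105697364, GRCm38, plus strand) had 907 reads in the H2AZcKO library and 1000 in the H2AZfl/fl library. After scaling to a common library size with TMM factors these were 101.7 CPM in the H2AZcKO library and 116.6 CPM in the H2AZfl/fl library. Its log2 ratio was -0.20 (-0.33 to -0.066), and 19.98% of measured genes had a lower ratio. Its interval reached level when libraries were scaled to dorsal patterning genes, at -0.10 (-0.24 to 0.027). Neurog2 (ENSMUSG00000027967, chromosome 3, 127633135 to 127635631, plus strand) had 1415 reads in the H2AZcKO library and 1623 in the H2AZfl/fl library. Its log2 ratio was -0.25 (-0.36 to -0.15), 1.19-fold lower. Neurog2 is on the same chromosome as H2afz and ends 10.2 Mb before it. Neurog1 (ENSMUSG00000048904, chromosome 13, 56250505 to 56252163, minus strand) was sparse, with 97 reads in the H2AZcKO library and 93 in the H2AZfl/fl library. Its log2 ratio of 0.0039 had an interval from -0.42 to 0.43, which also holds the value of Neurog2, so at this depth Neurog1 can be called neither level nor lower.

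Among the factors of intermediate progenitors, Eomes and Neurod1 were lower in the H2AZcKO library and Insm1 was higher. Eomes (ENSMUSG00000032446, chromosome 9, 118478212 to 118486132, plus strand) had 2198 reads in the H2AZcKO library and 2507 in the H2AZfl/fl library, a log2 ratio of -0.25 (-0.33 to -0.16). Insm1 (ENSMUSG00000068154, chromosome 2, 146221921 to 146225020, plus strand) had 1708 reads in the H2AZcKO library and 1472 in the H2AZfl/fl library. Its log2 ratio was 0.16 (0.057 to 0.26), 1.12-fold higher, with 79.6% of measured genes below it. Insm1 is thus on the other side of level from Eomes, and whether the reads of both came from the same cells cannot be told in bulk tissue. Neurod1 (ENSMUSG00000034701, chromosome 2, 79452521 to 79456751, minus strand) had 695 reads in the H2AZcKO library and 830 in the H2AZfl/fl library. Its log2 ratio of -0.31 (-0.46 to -0.17) was the lowest of the 8 members with at least 1000 reads, and 12.6% of measured genes were lower. Neurod4 (ENSMUSG00000048015, chromosome 10, 130268153 to 130280240, minus strand) had 63 reads in the H2AZcKO library and 84 in the H2AZfl/fl library, and its interval just reached level, at -0.47 (-0.97 to 0.017). Scaled by library totals instead, its log2 ratio was -0.50 and the interval ended just below level, at -0.018.

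The factors of postmitotic neurons had the most reads and, apart from the sparse Neurog1, the smallest differences. Neurod6 (ENSMUSG00000037984, chromosome 6, 55677822 to 55681263, minus strand) had 6326 reads in the H2AZcKO library and 6390 in the H2AZfl/fl library, a log2 ratio of -0.071 (-0.12 to -0.021). Neurod2 (ENSMUSG00000038255, chromosome 11, 98325415 to 98329648, minus strand) had 5021 reads in the H2AZcKO library and 5034 in the H2AZfl/fl library, a log2 ratio of -0.060 (-0.12 to -0.0036). Tbr1 (ENSMUSG00000035033, chromosome 2, 61802930 to 61814114, plus strand) had 4495 reads in the H2AZcKO library and 4575 in the H2AZfl/fl library, a log2 ratio of -0.082 (-0.14 to -0.022). These 3 ratios lay within 0.022 of each other on the log2 scale, and their calls depended on the scaling. With DESeq2 size factors all 3 intervals reached level, and when libraries were scaled so that dorsal patterning genes were level the 3 log2 ratios turned positive, at 0.033 for Neurod2, 0.022 for Neurod6 and 0.011 for Tbr1. By stage, the median log2 ratio was -0.20 for radial glia (3 genes), -0.28 for intermediate progenitors (4 genes) and -0.071 for neurons (3 genes).

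Levels between genes were compared as TMM-scaled CPM per kilobase of exon, with exon lengths from GENCODE M21 (GRCm38). Neurod6 was the most abundant in both libraries, with 330 CPM per kb in the H2AZcKO library and 346 in the H2AZfl/fl library, followed by Neurod2 with 179 in the H2AZcKO library and 187 in the H2AZfl/fl library. Tbr1 had 91.9 in the H2AZcKO library and 97.2 in the H2AZfl/fl library. Neurog2 came next in both libraries, with 71.2 CPM per kb in the H2AZcKO library and 85.0 in the H2AZfl/fl library. The next places were exchanged between the libraries. In the H2AZcKO library Insm1 had 61.8 CPM per kb (58.9 to 64.8) and Eomes 59.3 (56.9 to 61.8), so that their counting intervals overlapped. In the H2AZfl/fl library Eomes had 70.3 (67.6 to 73.2) and Insm1 55.4 (52.6 to 58.3), and the intervals were apart. The lower places were the same in both libraries. Neurod1 had 28.6 CPM per kb in the H2AZcKO library and 35.5 in the H2AZfl/fl library, and Pax6 had 8.70 in the H2AZcKO library and 9.97 in the H2AZfl/fl library. Neurog1 had 6.45 in the H2AZcKO library and 6.43 in the H2AZfl/fl library, and Neurod4 had 2.11 in the H2AZcKO library and 2.93 in the H2AZfl/fl library. Apart from Insm1 and Eomes in the H2AZcKO library, no neighbours in either order had overlapping intervals. The exons of all annotated Pax6 transcripts together span 11694 bases, so its level per kb is a low estimate if a shorter isoform prevailed.

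**Figure D2:**
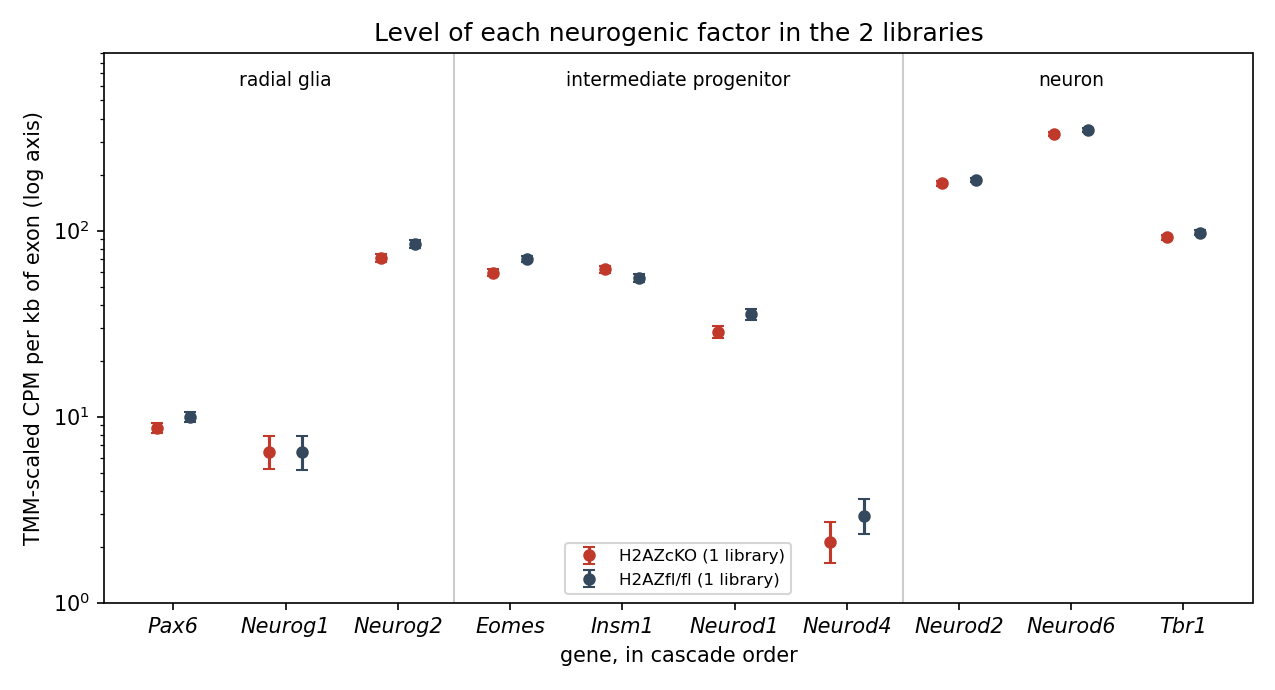
Level of each factor in the H2AZcKO library (red, left of each pair) and the H2AZfl/fl library (dark, right), as TMM-scaled CPM per kb of exon on a log axis, in cascade order. Bars are exact 95% Poisson intervals of the reads; Insm1 stands above Eomes in the H2AZcKO library and below it in the H2AZfl/fl library.

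The ratio of one factor's reads to another's within a library does not depend on how the libraries are scaled, so the cascade was also read in this way. Over Pax6, no neuronal factor was apart beyond counting error. There were 4.96 Tbr1 reads per Pax6 read in the H2AZcKO library and 4.58 in the H2AZfl/fl library, a quotient of 1.08 (0.98 to 1.20, exact conditional interval). For Neurod6 over Pax6 the read ratio was 6.97 in the H2AZcKO library and 6.39 in the H2AZfl/fl library, a quotient of 1.09 (0.99 to 1.20). For Neurod2 over Pax6 it was 5.54 in the H2AZcKO library and 5.03 in the H2AZfl/fl library, a quotient of 1.10 (0.996 to 1.21). Each of these intervals just held 1. Eomes has more reads than Pax6. There were 2.05 Tbr1 reads per Eomes read in the H2AZcKO library and 1.82 in the H2AZfl/fl library. The quotient was 1.12 (1.04 to 1.20), and its interval left out 1 but overlapped that of Tbr1 over Pax6.

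All 45 pairs of the 10 factors were then computed, and their grouping was chosen after the values were seen. Among Pax6, Neurog2, Eomes and Neurod1, all 6 pairs had intervals that held 1, with quotients from 0.923 to 1.01. Among Neurod2, Neurod6 and Tbr1, all 3 pairs held 1, with quotients from 0.985 to 0.993. Of the 12 ratios of a neuronal factor to one of the 4 progenitor factors, 9 had intervals above 1, with quotients from 1.08 to 1.19, and the 3 that did not were those over Pax6. Because Insm1 was left out of the progenitor set for its values, the likeness inside that set is a description of how it was chosen. The count of 9 of 12 likewise restates the ratios of the single genes.

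Insm1 was taken apart from both sets. Of its 9 ratios to the other factors, 8 had intervals above 1 and the ratio to Neurog1, with few reads, did not. Insm1 was set apart as the 1 factor with an interval above level, so this count restates its own ratio. There were 0.777 Insm1 reads per Eomes read in the H2AZcKO library and 0.587 in the H2AZfl/fl library, a quotient of 1.32 (1.21 to 1.45). Over Neurod1 the quotient was 1.39 (1.22 to 1.57), over Neurog2 1.33 (1.20 to 1.47), and over Tbr1 1.18 (1.09 to 1.28). None of the 15 remaining pairs, which all involve Neurog1 or Neurod4, had an interval that left out 1.

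**Figure D3:**
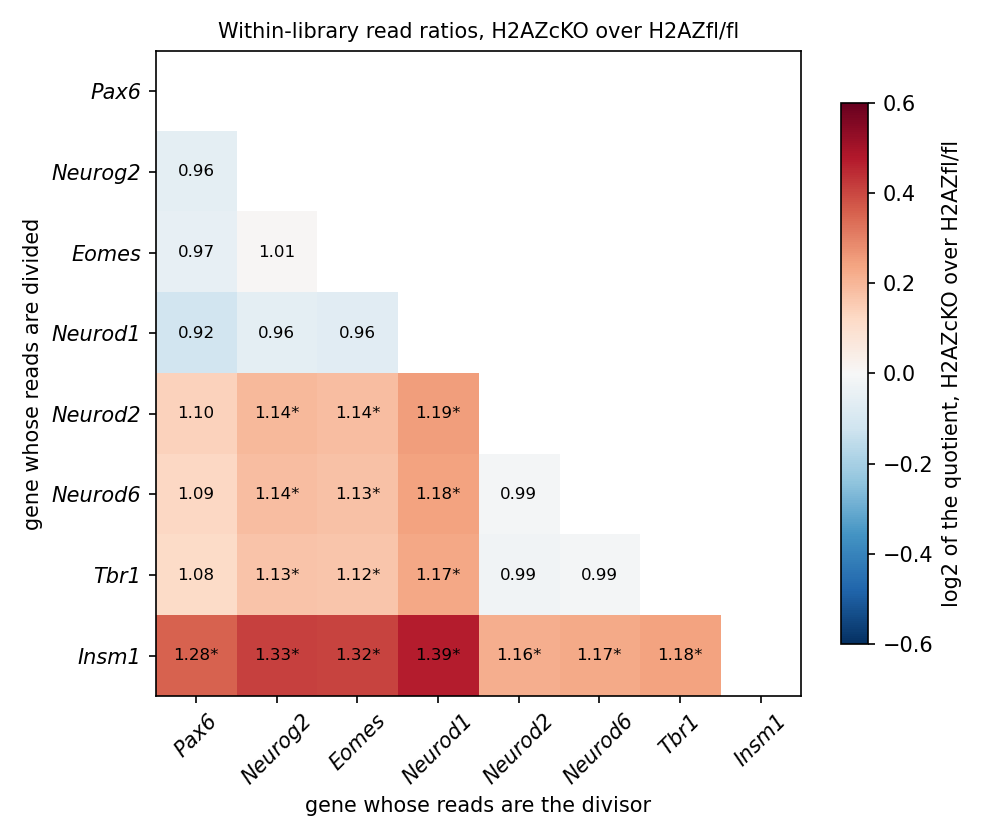
Read ratio of the row gene to the column gene in the H2AZcKO library divided by the same ratio in the H2AZfl/fl library, for the 8 factors with at least 1000 reads. Numbers are quotients, colour is their log2, and an asterisk marks an exact interval that leaves out 1; pairs within the progenitor set and within the neuronal set lie near 1, and the Insm1 row runs from 1.16 to 1.39.

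Promoter windows of 5 members are shown because 3 of them, Neurog2, Eomes and Neurod1, were lower together, while the other two, Neurod2 and Neurod6, are the most abundant neuronal factors. Each is the 250 bases before the transcript start in RefSeq (GRCm38.p6), 5′ to 3′ on the gene's strand, with capitals marking the E-box letters CANNTG, which read the same on both strands, and the CCAAT letters on either strand. The windows are chr3:127632886-127633135 (plus) for Neurog2, chr9:118477939-118478188 (plus) for Eomes, chr2:79456637-79456886 (minus) for Neurod1, chr11:98329646-98329895 (minus) for Neurod2 and chr6:55681264-55681513 (minus) for Neurod6.
Neurog2: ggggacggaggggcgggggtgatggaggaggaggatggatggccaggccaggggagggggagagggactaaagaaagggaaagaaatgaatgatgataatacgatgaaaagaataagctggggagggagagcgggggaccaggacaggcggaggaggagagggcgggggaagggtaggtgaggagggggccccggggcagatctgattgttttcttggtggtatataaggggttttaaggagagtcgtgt
Eomes: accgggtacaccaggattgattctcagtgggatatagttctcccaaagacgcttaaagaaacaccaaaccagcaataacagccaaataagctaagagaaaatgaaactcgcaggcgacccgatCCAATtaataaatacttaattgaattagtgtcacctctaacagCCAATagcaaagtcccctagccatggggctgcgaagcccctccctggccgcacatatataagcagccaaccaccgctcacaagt
Neurod1: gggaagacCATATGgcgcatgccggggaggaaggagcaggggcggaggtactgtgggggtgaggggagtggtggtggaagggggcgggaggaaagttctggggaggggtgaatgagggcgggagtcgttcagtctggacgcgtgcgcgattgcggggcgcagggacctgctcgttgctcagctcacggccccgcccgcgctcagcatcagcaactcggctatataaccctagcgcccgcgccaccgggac
Neurod2: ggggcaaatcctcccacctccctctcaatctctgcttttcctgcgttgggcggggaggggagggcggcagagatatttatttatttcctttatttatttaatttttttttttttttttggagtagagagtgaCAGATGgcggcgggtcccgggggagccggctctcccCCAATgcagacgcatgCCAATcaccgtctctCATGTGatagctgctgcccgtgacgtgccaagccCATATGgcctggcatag
Neurod6: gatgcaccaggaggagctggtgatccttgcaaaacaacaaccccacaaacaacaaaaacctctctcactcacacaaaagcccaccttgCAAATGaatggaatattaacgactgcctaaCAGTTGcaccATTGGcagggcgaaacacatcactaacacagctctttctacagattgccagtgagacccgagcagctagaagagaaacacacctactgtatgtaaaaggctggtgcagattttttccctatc

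The number of matches differed from window to window. The Neurod2 window had 3 E-boxes, of which 1, CAGATG from 118 to 113 bases before the start, has the core that proneural factors are known to prefer, and 2 CCAAT matches. The Neurod6 window had 2 E-boxes and 1 CCAAT match. The Neurod1 window had 1 E-box, the Eomes window 2 CCAAT matches, and the Neurog2 window none of either. The window of Tbr1, the remaining neuronal factor, which is not printed, held 1 E-box and no CCAAT. No window was available here for Insm1. Of the 11 RefSeq windows available for the other 9 members, 5 held a CANNTG, beside 66.2% of 32851 windows of the same length over all genes. The T-box letters AGGTGT on either strand were in 3 of the 11, among them overlapping windows of Neurod4, beside 11.8% of all windows. A CAGATG on either strand was in 1 of the 11, beside 14.4% of all windows, and CCAAT on either strand was in 5, beside 33.8%. These matches describe the letters only, since no binding or chromatin was measured in these libraries.

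The partners and antagonists of the proneural factors differed by little. Of the E proteins, the dimer partners of the proneural factors, Tcf4 had 8225 reads in the H2AZcKO library and 8691 in the H2AZfl/fl library, a log2 ratio of -0.14 (-0.18 to -0.092). Tcf12 was at 0.0068 (-0.078 to 0.092), and Tcf3 at 0.097 (0.0054 to 0.19). The Id proteins bind E proteins and block this pairing. Id2 was at -0.20 (-0.30 to -0.097), Id4 at 0.042 (-0.092 to 0.18), and Id3, which vascular and meningeal cells also express, was 1.62-fold lower with 93 reads in the H2AZcKO library and 145 in the H2AZfl/fl library. Of the 7 E protein and Id genes, Id3 was the only one at least 1.5-fold apart, and the median log2 ratio was -0.075, or 0.018 when scaled to dorsal patterning genes.

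Notch signalling, through which newborn neuronal cells hold their neighbours as progenitors, was represented by 20 genes. The median of its log2 ratios was -0.045, or 0.048 when scaled to dorsal patterning genes, with 2 intervals above 0 and 3 below. Hey2, an effector gene named after its value was seen, was the only one at least 1.5-fold apart, with 37 reads in the H2AZcKO library and 57 in the H2AZfl/fl library. The Notch ligand gene Dll1, a target of the neurogenins, had 525 reads in the H2AZcKO library and 474 in the H2AZfl/fl library, a log2 ratio of 0.091 (-0.091 to 0.27). Dll3, another such target, had 160 reads in the H2AZcKO library and 117 in the H2AZfl/fl library, at 0.39 (0.042 to 0.75). The effector gene Hes1, a repressor of proneural genes, had 196 reads in each library, and Hes5, another effector, had 104 in the H2AZcKO library and 124 in the H2AZfl/fl library, at -0.31 (-0.70 to 0.077). The receptor gene Notch2 was at -0.29 (-0.41 to -0.17).

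Genes known as targets of the proneural factors did not share one direction. Of 14, 5 had intervals above 0 and 2 below, with a median log2 ratio of 0.046. Nhlh1, a basic helix-loop-helix gene of newly formed neurons, was lower, with 271 reads in the H2AZcKO library and 383 in the H2AZfl/fl library, at -0.55 (-0.79 to -0.33). Mfng, a glycosyltransferase gene that modifies Notch and is active in intermediate progenitors, was at -0.22 (-0.41 to -0.031). Ebf3, a factor gene of Cajal-Retzius and other early neurons, was higher, with 365 reads in the H2AZcKO library and 247 in the H2AZfl/fl library, at 0.51 (0.27 to 0.75). The ratio of Nhlh1 was further from level than those of all 10 factors, although the interval of Neurod4 includes its value.

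Other members of the factors' own families were few in this tissue. Of 10 relatives, 5 were listed and 1 was measured: Insm2, a paralog of Insm1 named here after its value was seen, with 23 reads in the H2AZcKO library and 33 in the H2AZfl/fl library, a log2 ratio of -0.57 (-1.41 to 0.23). Among other neural basic helix-loop-helix genes, 7 of 14 were measured, with 4 intervals above 0, 2 below and a median log2 ratio of 0.16. Olig1 and Olig2, which mark ventral and oligodendrocyte progenitors, had log2 ratios of 0.74 (0.39 to 1.11) and 0.44 (0.13 to 0.75).

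Marker lists of the same stages, which hold none of the 10 factors, had medians close to level. The 15 radial glia markers had a median log2 ratio of -0.059, with 3 intervals above 0 and 3 below. Fabp7, a fatty acid binding protein gene of radial glia, was at -0.21 (-0.29 to -0.13), and Sox2, a progenitor factor gene active throughout the brain, at 0.30 (0.19 to 0.41). The 12 intermediate progenitor markers had a median of -0.044, with 1 interval above 0 and 4 below. Among the 4 were Nhlh1, Mfng and Rhbdl3, a rhomboid-family gene, at -0.18 (-0.35 to -0.018). The 1 above was Elavl4, named after its value was seen, at 0.15 (0.067 to 0.24). The summed level of these 12 markers was 929 CPM in the H2AZcKO library and 935 in the H2AZfl/fl library. The 16 projection neuron markers had a median of 0.0095, with 3 above and 4 below. Fezf2, a factor gene of subcortical projection neurons, was at -0.22 (-0.32 to -0.12). Pan-neuronal genes, in contrast to the 3 neuronal factors, were higher in the H2AZcKO library, with 13 of 15 intervals above 0, 0 below and a median of 0.22. Tubb3, which encodes a tubulin of neurons, had a log2 ratio of 0.20 (0.17 to 0.23). With scaling to dorsal patterning genes the medians of the radial glia and intermediate progenitor markers were above 0, at 0.034 and 0.049, and that of the projection neuron markers was 0.10, further from level than the 0.022 of the neuronal factors. With library totals the median of the projection neuron markers was below 0, at -0.025. The differences between these lists and the factors were not tested, and whether any is peculiar to the factors is not known.

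**Figure D4:**
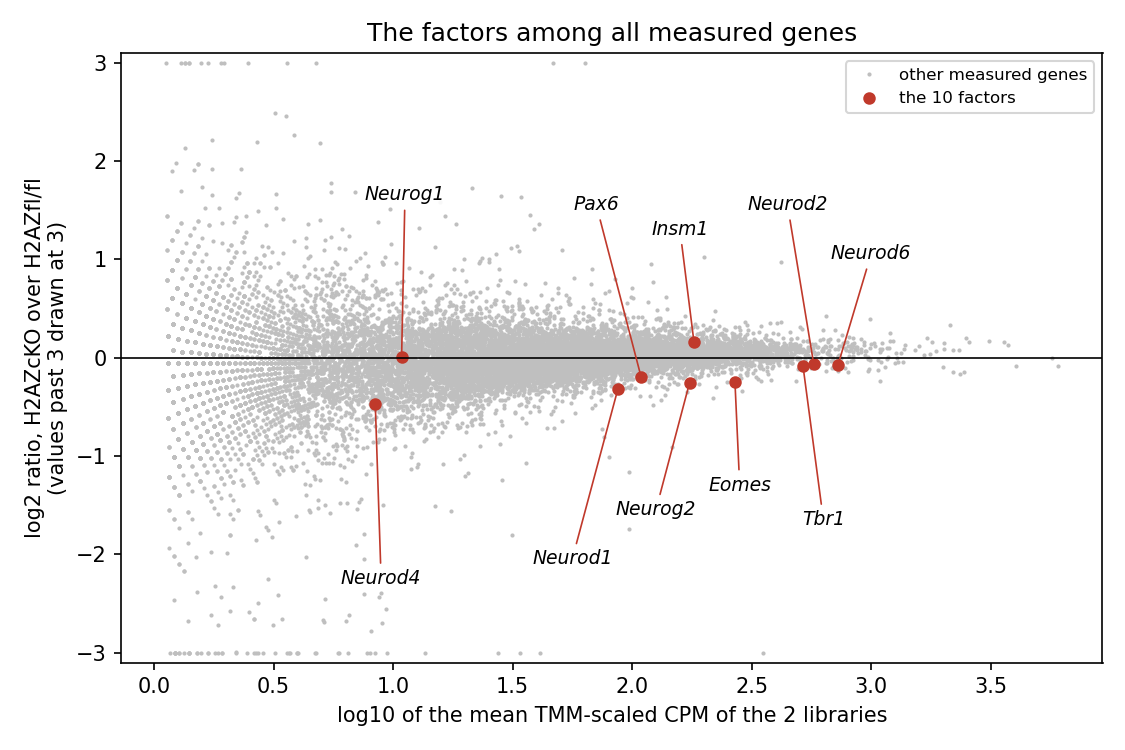
Log2 ratio of H2AZcKO to H2AZfl/fl (vertical, values past 3 drawn at 3) against the log10 of the mean TMM-scaled CPM of both libraries for 14366 measured genes, with the 10 factors in red. The factors run from -0.47 for Neurod4 to 0.16 for Insm1.

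Markers of other regions and tissues had different levels in the 2 libraries. Whether cell makeup or RNA per cell differed cannot be told apart here. Emx1, a homeobox gene of the dorsal telencephalon, was present in both, with 645 reads in the H2AZcKO library and 588 in the H2AZfl/fl library, a log2 ratio of 0.077 (-0.087 to 0.24). The 15 dorsal patterning genes had a median of -0.093, with 2 intervals above 0 and 5 below. Emx1 was among the 6 with ratios above 0, and 9 were below. By the naming rule, Lef1 was at -0.37 (-0.74 to -0.014) and Dmrt3 at -0.31 (-0.71 to 0.088). On the other side, Wnt7b was at 0.26 (0.17 to 0.36) and Sp8 at 0.24 (-0.078 to 0.57). The summed level of the list was 1874 CPM in the H2AZcKO library and 1913 in the H2AZfl/fl library. Ventral telencephalic markers were higher: 9 of 16 measured genes were at least 1.5-fold higher and 0 lower, with a median log2 ratio of 0.71. Their summed level was 1300.3 CPM in the H2AZcKO library and 869.3 in the H2AZfl/fl library. Dlx2, a homeobox gene of GABAergic progenitors, was at 0.49 (0.36 to 0.61). Of 14 measured diencephalic markers, 11 were at least 1.5-fold higher and 0 lower, with a median log2 ratio of 1.78, or 0.90 among those with at least 100 reads. Together they had 334 CPM in the H2AZcKO library and 139.9 in the H2AZfl/fl library. Tcf7l2, a thalamic factor gene, had 1017 reads in the H2AZcKO library and 111 in the H2AZfl/fl library. Shox2, a thalamic factor gene, had 85 reads in the H2AZcKO library and 0 in the H2AZfl/fl library.

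Choroid plexus and meningeal markers were lower. Among 12 measured choroid plexus markers, 11 passed 1.5-fold on the lower side and 1 on the higher. Their median log2 ratio was -4.22, or -3.35 with the gene at 0 reads set to a floor of 3. They had a summed level of 27.5 CPM in the H2AZcKO library and 828 in the H2AZfl/fl library, and Calml4 had 0 reads in the H2AZcKO library. Of 12 meningeal markers, 11 were at least 1.5-fold lower and 0 higher, with a median of -3.69 and 35.9 CPM summed in the H2AZcKO library and 279.9 in the H2AZfl/fl library. Ttr, the choroid plexus transthyretin gene, had 12 reads in the H2AZcKO library and 6025 in the H2AZfl/fl library. The collagen gene Col1a1 had 17 in the H2AZcKO library and 455 in the H2AZfl/fl library. Whether these differences in regional and tissue markers bear on the ratios of the 10 factors was not tested.

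**Figure D5:**
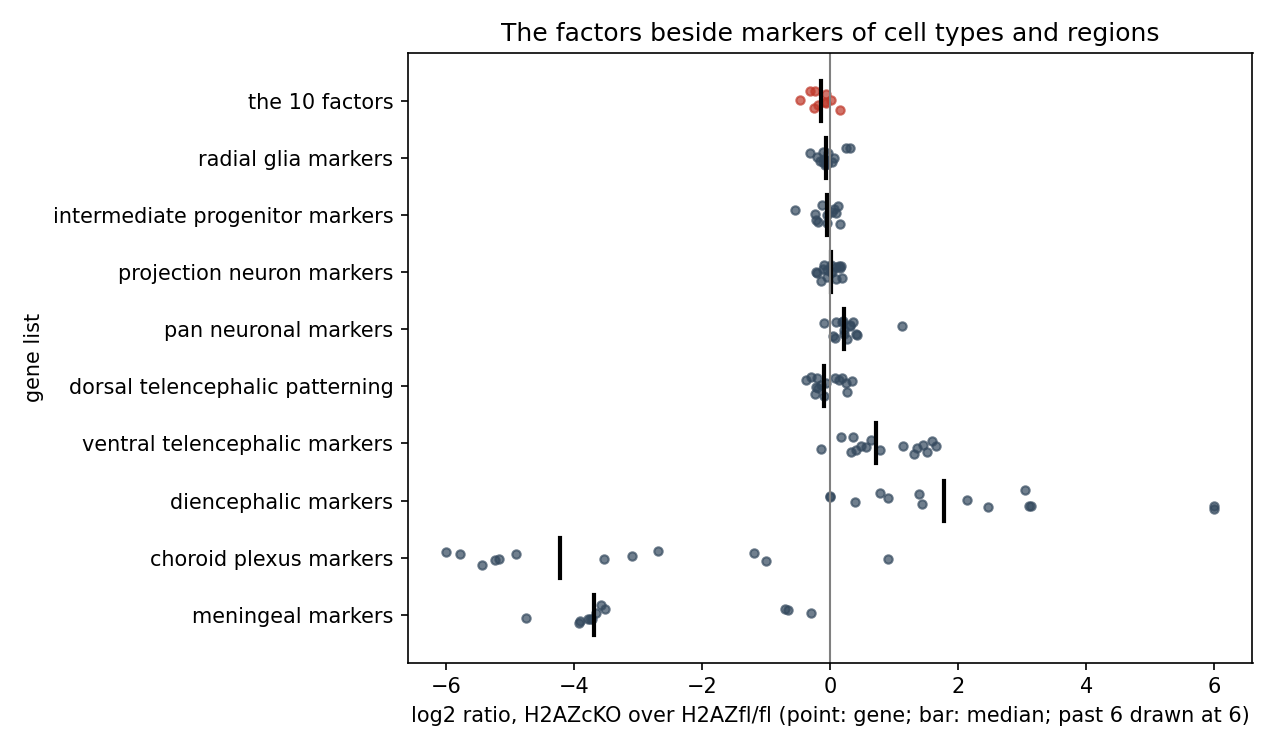
Log2 ratio of H2AZcKO to H2AZfl/fl for each measured gene of the neurogenic factors (red) and of 9 marker lists (dark), with a bar at each median and values past 6 drawn at 6. The factors have a median of -0.14, between choroid plexus and meningeal lists far below 0 and ventral and diencephalic lists above 0.

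Proliferation genes were close to level, with 18 of 18 genes measured, 3 intervals above 0, 1 below and a median log2 ratio of 0.034, or -0.0013 with library totals. Ccnd1, a G1 cyclin gene, was its highest member at 0.43 (0.26 to 0.60), and Ccnb1, a mitotic cyclin gene, was at 0.27 (0.090 to 0.46). Of the genes that overlap the factors, Pax6os1, antisense to Pax6, had 8 reads in the H2AZcKO library and 6 in the H2AZfl/fl library, and Cerkl, whose span includes Neurod1 on the same strand, had 3 in the H2AZcKO library and 2 in the H2AZfl/fl library. Gm26755, which overlaps Neurod1 on the opposite strand, had 2 reads in the H2AZcKO library and 1 in the H2AZfl/fl library. Gm33460, antisense to part of Eomes, was not among the genes listed with counts, so its reads are not known. Whether the counting used strand is not stated, so where these genes share bases their reads are uncertain.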

How the data were processed

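RNA-seq counts in 1 H2AZcKO and 1 H2AZfl/fl column, each called a library although it may be a pool, were used. The raw counts per gene are the authors' deposited values, per the file headers; Bowtie2 2.2.3, TopHat2 2.0.12, HTSeq 0.6.0 and the build mm9 are listed, without roles, in the submitters' processing notes. Positions in the table matched GENCODE M21 gene models on GRCm38 exactly for 15566 of 19616 shared IDs, so coordinates are given as GRCm38. The deposited CPM columns divide each count by a constant per sample. The deposited fold (ratio) and its log2 are control over knockout, opposite in sign to the ratios here. The deposited p-values and adjusted p-values come from the authors' test, whose method no source used here states; only its mark of significance is quoted. Symbols matched 19616 of 19720 IDs.

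Counts were scaled by TMM in edgeR 4.0.16 (R 4.3.3), and log2 ratios were taken with a prior of 0.5 read. A fold of 1.5 and 20 reads in the sum were the thresholds. Intervals cover counting error only; reads without molecular identifiers are not independent molecules. Quotients of within-library ratios have exact conditional intervals (scipy 1.17.1, Python 3.11.15). The calculation was checked on simulated counts. Alternatives were library-total, DESeq2 1.42.0 and dorsal-list scaling, a prior of 5, minima of 100 and 0 reads, a lower fold threshold and Wilson intervals. The 10 members, the 23 lists (the members and their stages included) and the rule for named genes were chosen with earlier results of these data known. By that rule the text names the 10 members, H2afz, H2afv, a short set of well-known markers, and up to 4 genes per list, those furthest from level whose higher library had 100 reads or more; other names are markers at 0 reads or are said to be chosen after their values were seen. Some genes the rule would name are not reported here. With 2 libraries, no gene could be ranked by likeness of pattern.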

Additional observations from a re-analysis of the deposited data

How the results depend on the processing

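Of the values for the 10 factors, their stages, counts and read ratios, 111 of 119 alternative values moved by less than the counting interval (for medians, the median interval half-width of the genes), or by at most 1.5 times for counts. Part of this was fixed in advance. All 10 factors passed both alternative minima of reads in the sum of the libraries, so those settings could not change their values. The prior does not enter the intervals, so it could not change the interval counts. With libraries scaled so that the dorsal telencephalic patterning list was level, the log2 ratios of Neurod2, Neurod6 and Tbr1 turned to 0.033, 0.022 and 0.011, the neuronal median to 0.022, that of Eomes stayed below 0 at -0.15, and 3 factors (Neurog2, Eomes and Neurod1) had intervals below level in place of 7. With DESeq2 size factors 4 had intervals below level, those 3 and Pax6. At a smaller fold threshold 1 factor, Neurod4 at 1.38-fold, counted as lower. With Wilson intervals 8 factors had intervals below level. No share of all measured genes was taken under these alternative settings, so these counts cannot be set against a background. Of 119 such values for list medians and the median of all measured genes, 116 moved by less than that half-width, though some medians close to 0 changed sign. The exceptions were family relatives without a minimum of reads (1.17), pan-neuronal markers with dorsal-list scaling (0.31) and diencephalic markers with at least 100 reads (0.90). Scaling moved the median log2 ratio of all measured genes to 0.095 with the dorsal list, 0.025 with DESeq2 and -0.033 with library totals, against 0.0018. Quotients of within-library ratios do not depend on scaling. No paired analysis was possible because each genotype has 1 library, and for the same reason no library could be left out. Neurog1 and Neurod4 are limited by depth, with under 100 reads in each library.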

Other observations

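Of the Cajal-Retzius markers, which mark early marginal-zone neurons that also express Tbr1 and Neurod factors, 9 of 9 were measured, with a median log2 ratio of 0.16, 3 intervals above 0 and 2 below. Reln, the gene of the secreted guidance protein reelin and a known Tbr1 target, had 4978 reads in the H2AZcKO library and 4793 in the H2AZfl/fl library, a log2 ratio of -0.0019 (-0.059 to 0.056). It was looked at after its value was seen. Trp73, a p53-family gene of these cells, was at -0.41 (-0.66 to -0.16), while Lhx1, a LIM homeobox gene, was at 0.48 (0.10 to 0.87). The list thus had members beyond counting error on both sides of level.

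Endothelial markers had 1 of 10 measured genes at least 1.5-fold lower and 0 higher, with a median log2 ratio of -0.26 and 258 CPM summed in the H2AZcKO library and 295 in the H2AZfl/fl library. Slco1a4, an organic anion transporter gene, had 0 reads in the H2AZcKO library. Of 9 measured microglial markers, 3 were at least 1.5-fold lower and 0 higher, with a median of -0.37. Their summed level was 48.3 CPM in the H2AZcKO library and 66.9 in the H2AZfl/fl library. Mrc1 had the lowest ratio of the list, with 21 reads in the H2AZcKO library and 109 in the H2AZfl/fl library. Csf1r had 141 reads in the H2AZcKO library and 128 in the H2AZfl/fl library. Its log2 ratio of 0.083 (-0.27 to 0.44) was not distinguishable from level.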
